A study of Mus musculus with 112 samples.

Results

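The levels of 10 endothelial genes were followed through mouse mammary tumours started by the polyoma virus middle T antigen (PyMT). The genes were Pecam1, Cdh5, Kdr, Tek, Tie1, Esam, Cldn5, Emcn, Eng and Flt1. Every probe set of the MOE430A and MOE430B arrays whose platform annotation gave a listed gene as its sole symbol was taken, which gave 15 of 45137 probe sets, 14 on MOE430A and 1, for Flt1, on MOE430B. Each of the 10 genes, of 18193 named on the arrays, was represented, no listed gene was found on a probe set with several symbols, and no probe set was dropped for a low value.

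The series holds 56 tumours, each hybridised to both array types, from mice of crosses between AKXD sublines and PyMT mice. AKXD sublines are recombinant inbred lines derived from the AKR and DBA strains. The groups were AKXD sublines 2, 3, 7, 9, 10, 11, 13, 14, 16, 18, 20, 21, 22, 23, 24, 25, 27 and 28, with 3 tumours in 16 sublines and 4 tumours in sublines 2 and 25. Every group carried the transgene, driven by the mouse mammary tumour virus promoter, so the tumours began in mammary epithelium. The labels give no age, no untreated tissue and no control subline, and they call the tumours biological replicates.

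Values are log2 expression. On MOE430A, subline 23 and tumour 3 of subline 25 were left out, which kept 52 tumours of 17 sublines. On MOE430B, tumour 3 of subline 11, tumour 2 of subline 23 and tumour 3 of subline 25 were left out, which kept 53 tumours of 18 sublines. The left-out arrays stood apart: the median of an array's correlations with the rest of its type was 0.97 to 0.991 among the kept MOE430A arrays and 0.223 to 0.948 among the 4 left out, and on MOE430B it was 0.968 to 0.991 among the kept arrays and 0.858 to 0.919 among the 3 left out. The epithelial markers Epcam and Krt18 were bright in each kept tumour, at 12.32 to 13.35 and 11.95 to 13.15. The mean deviation of 10 epithelial genes from their averages was lowest, at -1.05, in tumour 1 of subline 21. The next lowest was -0.42 and the highest 0.28. That tumour also had the lowest median correlation of the kept MOE430A arrays, 0.970. The 15 endothelial probe sets had means between 6.60 and 9.17, above the bacterial TrpnX control probe sets. The highest TrpnX value per kept array was 4.84 to 5.12 on MOE430A and 4.40 to 4.80 on MOE430B. Several were still dim beside the other probe sets of MOE430A. Of all its probe sets, 30.1% were dimmer than Tek, 31.1% than Tie1 and 32.7% than Cdh5 1422047_at. The share was 29.4% for Flt1 1419300_at and 26.2% for Flt1 1454037_a_at, against 71.6% for Kdr and 74.5% for Eng 1417271_a_at. A fit without the dimmer probe sets of MOE430A kept 6 of the 14 endothelial probe sets. RNA came from whole tumours, in which fewer endothelial cells and less RNA per endothelial cell cannot be told apart.

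Endothelial cells line blood vessels, and a tumour's supply of oxygen depends on the vessels that grow into it. VEGF ligands act on the receptors Kdr and Flt1, of which Flt1 also exists as a soluble form, while angiopoietins act on the receptor Tek, with Tie1 as its relative and partner. Cdh5 and Cldn5 build the junctions between endothelial cells, Pecam1 and Esam are adhesion molecules at the same contacts, Eng is a co-receptor for ligands of the TGF-beta family, and Emcn is a sialomucin of venous and capillary endothelium. ETS factors, whose binding motifs centre on GGAA, are known regulators of endothelial genes.

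Of the 10 genes, 7 had a RefSeq promoter entry for build GRCm38.p6. The 250 bases before the start of Tie1, Eng and Cldn5 are shown because these windows lay wholly outside the annotated gene and because the genes varied together across tumours, as described further on. Capitals mark AGGAAG and CGGAAG, both of the ETS type, and their reverse complements CTTCCT and CTTCCG, searched on both strands. The Tie1 window is at chr4:118489850-118490099 on the minus strand, the Eng window at chr2:32646345-32646594 on the plus strand and the Cldn5 window at chr16:18776597-18776846 on the plus strand.
Tie1: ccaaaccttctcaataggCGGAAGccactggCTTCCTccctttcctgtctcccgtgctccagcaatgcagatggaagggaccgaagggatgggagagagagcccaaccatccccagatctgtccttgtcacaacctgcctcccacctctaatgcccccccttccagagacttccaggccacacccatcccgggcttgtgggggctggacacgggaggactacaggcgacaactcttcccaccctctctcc
Eng: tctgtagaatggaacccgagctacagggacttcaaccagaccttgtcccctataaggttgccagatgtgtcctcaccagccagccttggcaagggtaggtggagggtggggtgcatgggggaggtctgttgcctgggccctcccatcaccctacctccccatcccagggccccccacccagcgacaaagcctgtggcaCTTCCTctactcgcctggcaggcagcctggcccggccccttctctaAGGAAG
Cldn5: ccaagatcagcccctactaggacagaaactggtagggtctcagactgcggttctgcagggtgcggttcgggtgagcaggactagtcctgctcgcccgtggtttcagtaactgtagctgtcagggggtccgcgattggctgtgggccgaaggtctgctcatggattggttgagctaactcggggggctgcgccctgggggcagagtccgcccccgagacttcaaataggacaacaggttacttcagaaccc
AGGAAG was present in 4 of the 7 windows (Tie1, Eng, Emcn and Flt1) and in 29.5% of 32851 windows of the same length. CGGAAG was present in 1 of the 7, Tie1, and in 13.6% of all windows. The Cldn5 window held neither string, which says no more than that these letters are not in it.

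Among the adhesion and junction genes, Pecam1 and Cdh5 had the widest spread across the kept tumours and Esam the narrowest. Pecam1 was lowest at 6.96, had a median of 7.60 and was highest at 8.26, with a mean of 7.62 ± 0.27 (SD, n = 52). Its lowest value, in tumour 1 of subline 22, and its highest, in tumour 3 of the same subline, differed 2.45-fold, so the extremes of this gene lay within a single subline. Cdh5 ran from 7.35 through a median of 7.86 to 8.62 by its brightest probe set, 1433956_at (7.90 ± 0.26, SD, n = 52), and from 6.50 through 6.97 to 7.52 by 1422047_at. Cldn5 ran from 7.47 through a median of 7.89 to 8.59 (7.92 ± 0.22, SD, n = 52). Esam ran from 8.31 through a median of 8.69 to 9.07 (8.70 ± 0.16, SD, n = 52). For Cdh5 and Cldn5 as for Pecam1, tumour 3 of subline 22 was the highest, while Esam was highest in tumour 2 of subline 10.

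Among the receptors, the span from lowest to highest tumour was smaller for Kdr and Flt1 1451756_at than for Tek and Tie1, a difference that was not tested. Kdr, the main signalling receptor for VEGF, ran from 8.68 through a median of 9.01 to 9.49 (9.01 ± 0.16, SD, n = 52), a 1.75-fold span, beside 1.53-fold for Flt1 1451756_at, 1.95-fold for Tek and 2.15-fold for Tie1. Tek ran from 6.32 through a median of 6.80 to 7.28 (6.81 ± 0.23, SD, n = 52), and Tie1 from 6.32 through a median of 6.83 to 7.42 (6.87 ± 0.25, SD, n = 52). Both were lowest in tumour 2 of subline 28. Eng ran from 8.82 through a median of 9.16 to 9.70 by its brightest probe set, 1417271_a_at (9.17 ± 0.17, SD, n = 52), and from 7.39 through 7.63 to 8.01 by 1432176_a_at. Emcn ran from 7.15 through a median of 7.61 to 7.84 (7.57 ± 0.15, SD, n = 52) and Flt1, by its brightest probe set 1451756_at, from 8.13 through a median of 8.48 to 8.75 (8.47 ± 0.14, SD, n = 52). The other Flt1 probe sets had means of 6.77 ± 0.19 (1419300_at, SD, n = 52), 6.60 ± 0.13 (1454037_a_at, SD, n = 52) and, on MOE430B, 6.94 ± 0.12 (1440926_at, SD, n = 53).

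**Figure D1:**
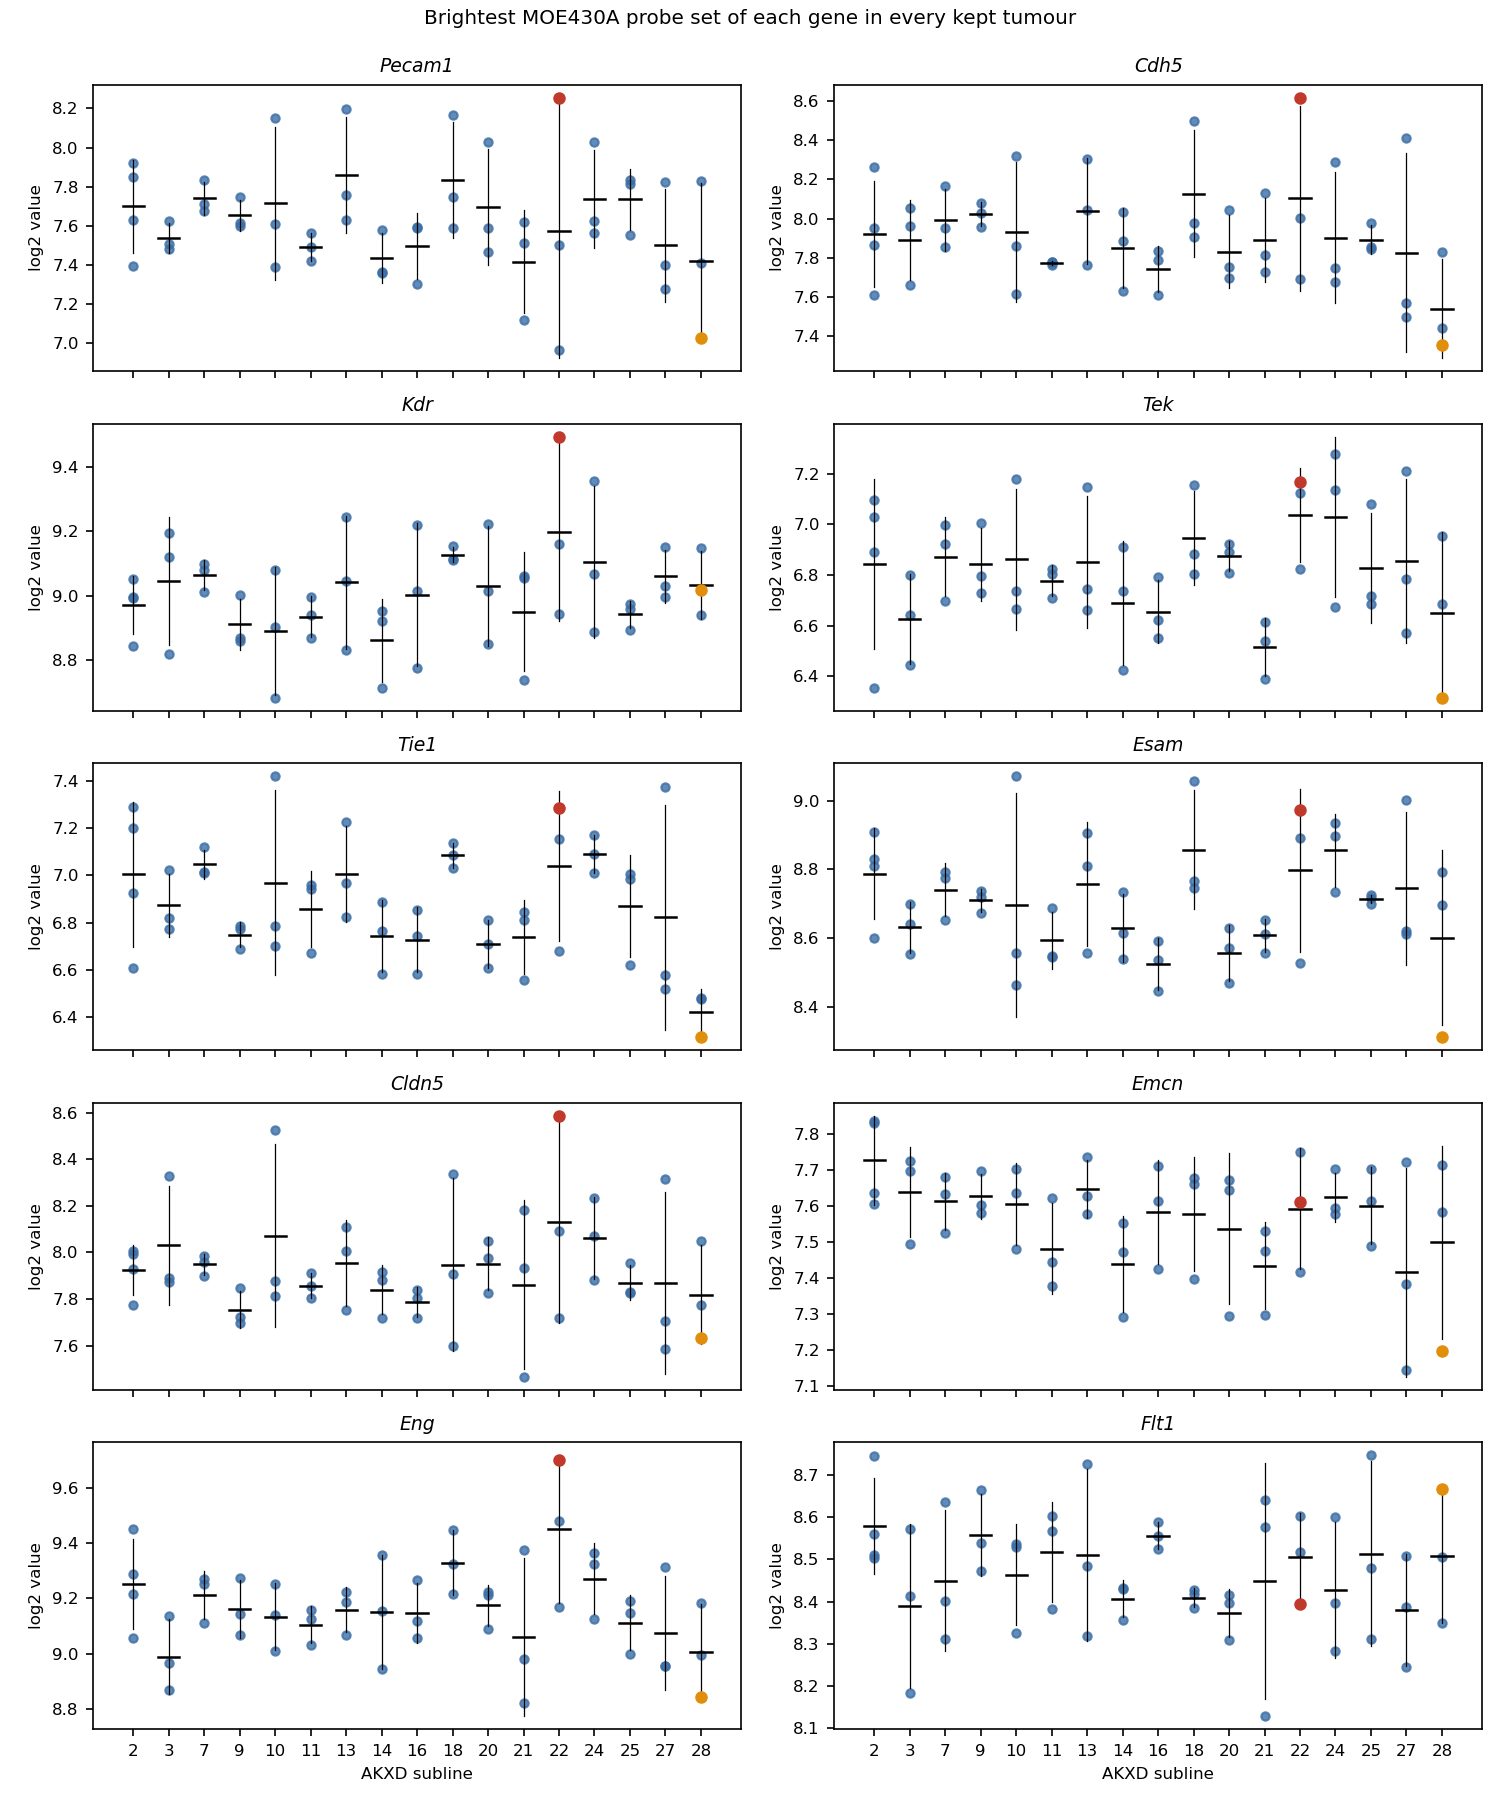
Log2 value (vertical axis) of the brightest MOE430A probe set of each endothelial gene in the 52 kept tumours, by AKXD subline (horizontal axis). Points are tumours, horizontal bars are subline means and vertical lines run 1 SD either way. Red marks tumour 3 of subline 22 and orange tumour 2 of subline 28, which hold the highest Pecam1 (8.26) and the lowest Tie1 (6.32), and the tumours of a subline often cover much of the whole range.

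Whether inherited background sets the level of these genes was addressed by comparing the sublines. None of the 14 MOE430A probe sets differed among the 17 sublines in limma's moderated F test with Benjamini-Hochberg adjustment over all probe sets, where 1.74% of all probe sets were called. At an unadjusted p under 0.05 the count was 1 of 14, beside 15.2% of all probe sets. That probe set was Tie1 (limma adjusted p = 0.284), followed by Eng 1417271_a_at (limma adjusted p = 0.419), and the others had limma adjusted p of 0.599 to 0.977. The Flt1 probe set of MOE430B was not called either (limma adjusted p = 0.761), beside 0.671% of that array's probe sets called and 11% at an unadjusted p under 0.05. A miss of the threshold with 3 tumours in most sublines does not show that the sublines were alike.

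Most of the spread lay between tumours of the same subline. The intraclass correlation estimates the share of variance between sublines. It falls below 0 when the subline means vary less than the spread within sublines alone would give. Its median was -0.03 over the 14 MOE430A probe sets and 0.05 over all probe sets of the array. It was highest for Tie1 (0.23) and Eng 1417271_a_at (0.18) and lowest for Eng 1432176_a_at (-0.22). The SD among tumours within a subline ranged from 0.14 for Flt1 1454037_a_at to 0.28 for Pecam1.

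Against the mean of the other sublines, 0 of 238 subline differences over the 14 MOE430A probe sets were called by limma, beside 0.459% of all such differences on the array, and 8 had an unadjusted p under 0.05, beside 7.56%. For the MOE430B probe set of Flt1, 0 of 18 differences were called, beside 0.276%, and 0 had an unadjusted p under 0.05, beside 6.64%. The smallest adjusted p among them belonged to Eng in subline 22. The 3 tumours of that subline had Eng values of 9.17, 9.48 and 9.70, of which 9.48 and 9.70 were above all other kept tumours, while 9.17 lay inside the range of the other sublines. The difference was 0.30 ± 0.09 (SE) on the log2 scale with a limma adjusted p of 0.0555.

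Tie1 in subline 28 came next. Its 3 tumours measured 6.48, 6.32 and 6.48, and the next lowest kept tumour was close by at 6.52. How many of all probe sets set a subline apart in this way was not counted, so the separation carries no weight of its own. The difference was -0.47 ± 0.13 (SE) with a limma adjusted p of 0.0858. Neither was called in the main fit. Without sublines 2, 20, 24 and 27, both passed the threshold (limma adjusted p of 0.0455 for Eng and 0.0397 for Tie1). In that fit 1998 differences were called over 22626 probe sets and 13 sublines. With every array included, 5 differences were called by limma, beside 3.86% of all differences, and all of them lay in subline 23: Tek at 0.99 ± 0.20 (SE), Eng 1432176_a_at at 0.62 ± 0.14 and Flt1 1419300_at at 0.40 ± 0.15 were higher, Cldn5 at -0.73 ± 0.18 and Eng 1417271_a_at at -0.45 ± 0.12 were lower. The 3 arrays of that subline ranged widely, with Tek values of 7.72, 6.72 and 8.95, and they are among those that stood apart. On MOE430B, including every array called 1 difference, Flt1 in subline 11 (-0.30 ± 0.08, SE, limma adjusted p = 0.02), beside 0.737% of all differences.

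The endothelial genes rose and fell together from tumour to tumour. Over the 45 pairs among the brightest probe sets of the 10 genes, Pearson's r had a median of 0.56 and Spearman's rho a median of 0.52, and 29 pairs had r above 0.5, which 4.23% of all pairs of the 12393 genes on MOE430A reached. A two-sided permutation test with 100000 resamples, adjusted over the 45 pairs, called 35 pairs, all positive. The weakest of the called pairs had r of 0.30, and 14.6% of all pairs of genes were at least as strong. Among the 36 pairs without Flt1, 35 were called, the exception being Kdr with Emcn (r = 0.11, rho = 0.13, adjusted permutation p = 0.559).

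The closest pair was Pecam1 with Cdh5, an adhesion molecule of platelets and endothelium and the cadherin of the adherens junction (r = 0.79, rho = 0.74, adjusted permutation p = 2.25e-05, r = 0.77 without the 2 tumours farthest from the median). Cdh5 with Esam (r = 0.77, rho = 0.71) and Tek with Esam (r = 0.76, rho = 0.70) followed, at the same adjusted permutation p of 2.25e-05, which comes from the smallest p that the resamples allow, 1e-05. Kdr and Emcn were the loosest of the 9, with medians of 0.53 and 0.50 over their correlations with the other genes, against 0.58 to 0.70 for Pecam1, Cdh5, Tek, Tie1, Esam, Cldn5 and Eng.

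The pattern held within sublines. After each subline's mean was removed, the median r of the 45 pairs was 0.59, and permutation within sublines called 34 pairs. The shares of all pairs of genes given above are for values with subline means kept and do not gauge this count. Pecam1 with Cdh5 then had r of 0.84 (rho = 0.77, adjusted permutation p = 5e-05). The 1 pair called before and not within sublines was Cldn5 with Emcn (r = 0.28 within sublines, adjusted permutation p = 0.199).

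**Figure D2:**
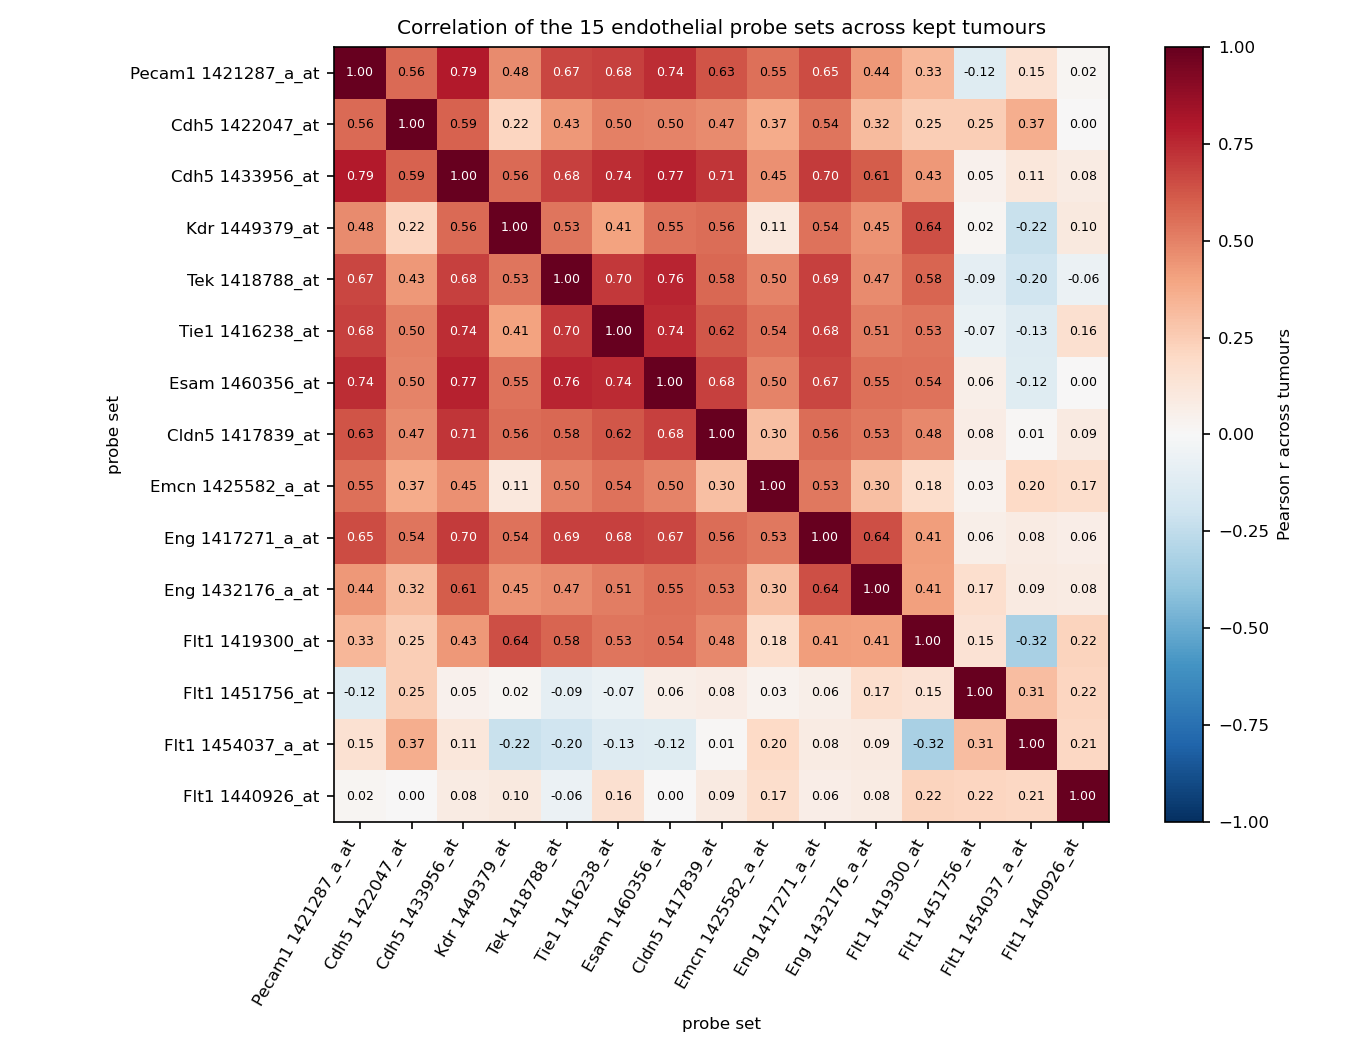
Pearson r across the kept tumours for each pair of the 15 endothelial probe sets (rows and columns), with colour from blue (-1) to red (1) and the value in each cell. The probe sets of the 9 genes other than Flt1 form a red block in which Pecam1 with Cdh5 1433956_at is highest at 0.79, and of the Flt1 probe sets 1419300_at joins that block, while 1451756_at, 1454037_a_at and 1440926_at were called with 0 of the other 9 genes.

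Probe sets of a gene did not all follow each other. The Cdh5 probe sets correlated (r = 0.59, rho = 0.50, adjusted permutation p = 4e-05 over 8 same-gene comparisons), as did those of Eng (r = 0.64, rho = 0.72, adjusted permutation p = 4e-05). Those of Flt1 had r between -0.32 and 0.31. Flt1 1419300_at had r of 0.15 with 1451756_at (rho = 0.13, adjusted permutation p = 0.295) and r of -0.32 with 1454037_a_at (rho = -0.28, adjusted permutation p = 0.0499, and 0.0931 for rho), and the latter was -0.15 within sublines. Flt1 1451756_at had r of 0.31 with 1454037_a_at (rho = 0.32, adjusted permutation p = 0.0499, and 0.0577 for rho), and 0.30 within sublines. Flt1 1440926_at, on the other array type, had r of 0.22 with 1419300_at over the 51 tumours kept on both (rho = 0.22, adjusted permutation p = 0.168).

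Of the 4 Flt1 probe sets, 1 was called with the other endothelial genes. Probe set 1419300_at was called with 8 of the 9 other genes by permutation, a count for which no share of all genes was computed. It was closest to Kdr, the other VEGF receptor (r = 0.64, rho = 0.65, adjusted permutation p = 3.07e-05, r = 0.63 without the 2 farthest tumours), then Tek (r = 0.58) and Esam (r = 0.54), and the gene it was not called with was Emcn (r = 0.18, adjusted permutation p = 0.277). Probe sets 1451756_at, the brightest, 1454037_a_at and 1440926_at were called with 0 of the 9, and their r with Kdr were 0.02, -0.22 and 0.10. As a looser gauge, 9.21% of all genes of MOE430A passed the weakest called correlation of single genes with 5 or more endothelial genes. With 1419300_at in place of 1451756_at, a choice made after seeing the data, 43 of the 45 pairs were called.

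The brightest Flt1 probe set also moved with a measure of the array itself. The level of 1451756_at rose with the highest TrpnX control value of its array (r = 0.56, rho = 0.495, adjusted permutation p = 0.00176 over 44 comparisons, r = 0.48 without the 2 farthest arrays), and 1419300_at had r of -0.04 with it. The part of this in the absence of a correlation with the other genes was not tested. Among the brightest probe sets of the 10 genes, no other was called with the TrpnX level. None was called with the array's median value, its median correlation with other arrays or the difference between the 3' and 5' Gapdh control probe sets. For that difference Pecam1 (r = -0.41) and Emcn (r = -0.39) came closest at an adjusted permutation p of 0.054. Flt1 1419300_at leaned the other way (r = 0.38, adjusted permutation p = 0.054), as did Kdr (r = 0.30, adjusted permutation p = 0.205).

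**Figure D3:**
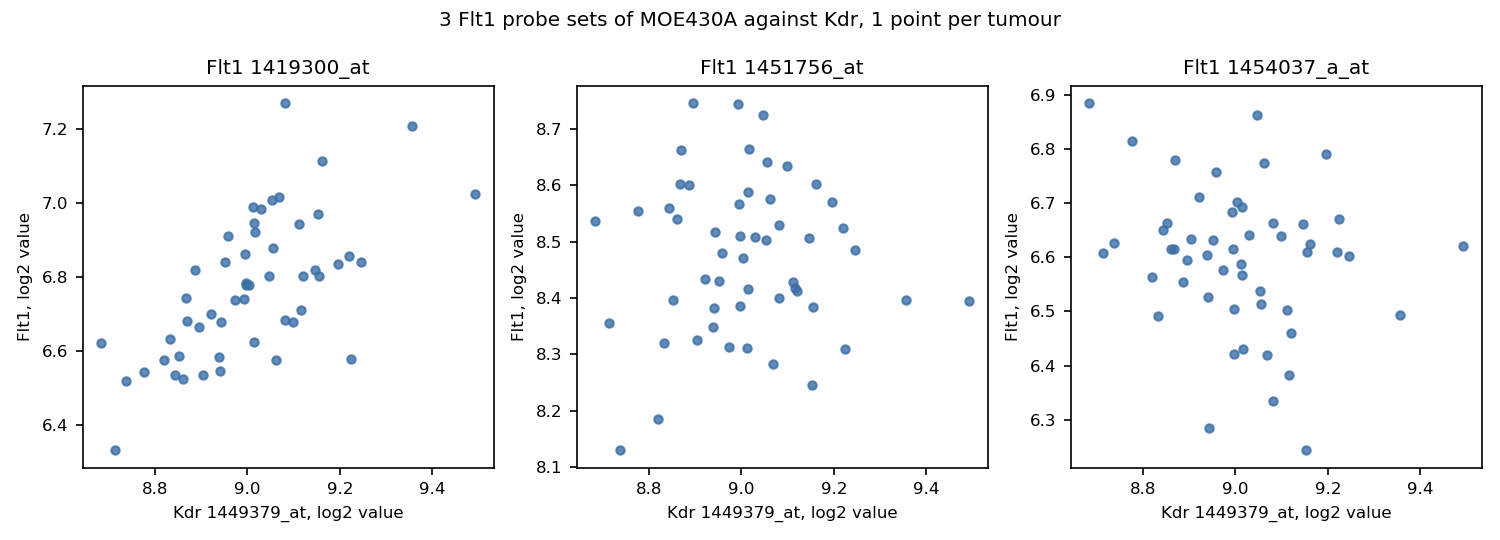
Log2 value of 3 Flt1 probe sets of MOE430A (vertical axes) against Kdr 1449379_at (horizontal axes), 1 point for each of the 52 kept tumours. Flt1 1419300_at rises with Kdr (r = 0.64), while 1451756_at has r of 0.02 and 1454037_a_at r of -0.22.

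Single tumours stood at the top or bottom of several genes together. Tumour 3 of subline 22 was among the 5 highest of the 52 kept tumours for 8 of the 10 genes, and tumour 2 of subline 10 and tumour 3 of subline 18 for 6 each. At the other end, tumour 2 of subline 28 was among the 5 lowest for 8 genes. Some tumours of a subline were far apart and others close. Tumours 1 and 2 of subline 27 were among the 5 lowest for 5 and 3 genes, and tumours 2 and 3 of subline 21 for 3 and 4. In subline 22, Pecam1 measured 6.96, 7.50 and 8.26 and Cldn5 7.72, 8.09 and 8.59. In subline 10, Cldn5 measured 7.81, 8.52 and 7.88 and Tie1 6.70, 7.42 and 6.79, so tumour 2 stood above both of its neighbours. In subline 27, Cdh5 measured 7.49, 7.57 and 8.41, and Tie1 measured 6.52, 6.58 and 7.37, with tumour 3 the highest for both. Without tumour 3 of subline 22 and tumour 2 of subline 28, which were picked after seeing the values, 34 of the 45 pairs were called.

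Other genes of the endothelium moved with the listed genes. Single genes of this and the following lists are named to show both those that were called and those that were not, a choice made after their values were seen. Of 26 further endothelial markers on MOE430A, 19 were positively called with at least 5 of the 10 genes by permutation, adjusted over 780 correlations of 78 vascular and hypoxia genes with the 10, and 9.21% of all genes passed the same correlation with as many. Ramp2, a partner of the adrenomedullin receptor, and Cd34, a sialomucin of vessels and of some stromal cells, had median r of 0.74 and 0.73 over the 10 genes and were each called with 9. Sox18, a transcription factor of vessel development, had a median r of 0.66 with 9 called, and Vwf, the clotting factor stored in endothelial cells, had 0.64 with 9 called. The ETS factors were looser: Fli1 was called with 5 (median r = 0.33), Ets1 with 2 (0.20) and Erg with 1 (-0.14). Mcam was called with none (median r = 0.07), and the receptor gene Calcrl with 1 (0.02).

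Of 12 VEGF, angiopoietin and apelin genes, 5 were positively and 1 negatively called with at least 5 of the 10 genes. Over all genes the shares past the same correlation were 9.21% and 6.96%. The co-receptors Nrp1 (median r = 0.54) and Nrp2 (0.41) were positively called with 8 and 9 of the 10 genes, and the apelin receptor Aplnr (0.57) with 8. The ligand Vegfd, better known for lymphatic vessels, was called with 9 (median r = 0.65) and Vegfb with 8 (0.49). The ligands Vegfa and Pgf went the other way. Pgf was negatively called with 5 genes (median r = -0.30), with Tek the strongest (r = -0.50, rho = -0.61, adjusted permutation p = 0.000772, r = -0.58 without the 2 farthest tumours). Vegfa, the ligand of Kdr and Flt1, was negatively called with Tek (r = -0.62, rho = -0.59, adjusted permutation p = 7.09e-05), Kdr (r = -0.37, rho = -0.30, adjusted permutation p = 0.0196, and 0.0659 for rho) and Esam (r = -0.35, rho = -0.25, adjusted permutation p = 0.0284, and 0.141 for rho), and positively with Flt1 1451756_at (r = 0.39, rho = 0.44, adjusted permutation p = 0.0139). Vegfc, Angpt1 and Angpt2, another VEGF ligand and the angiopoietins that bind Tek, had median r of 0.06, 0.10 and 0.12.

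Of 14 genes of the Notch and BMP or TGF-beta pathways, 2 were positively called with at least 5 of the endothelial genes, beside the 9.21% of all genes, and 5 were called with none. Tgfbr2 (median r = 0.48) was positively called with 8 genes and Id3, a target of BMP signalling (0.43), with 7. In contrast, Id1 (0.04) and Smad6 (-0.03) were called with 0, and Bmpr2 (-0.23) was negatively called with 3. Smad7, an inhibitor of TGF-beta signalling, was negatively called with 4 (median r = -0.30). The Notch ligand Dll4 (0.18), the receptor Notch4 (0.15) and the target Hey1 (-0.01) were called with 1, 0 and 0. The level of the whole list, which is the mean of its genes, was positively called with 3 of the 10 genes, Cdh5, Tie1 and Eng, beside 6.16% of all genes. The level of the VEGF, angiopoietin and apelin list was called with all 10 (median r = 0.50), beside 9.7% of all genes. Within sublines it was called with 6, for which no share of all genes was computed.

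Of 12 pericyte and smooth muscle genes, 5 were positively called with at least 5 of the 10 genes, beside 9.21% of all genes, and 5 were called with none. Rgs5, a pericyte gene, was called with 9 genes (median r = 0.67), Des with 8 (0.53) and Myh11, a smooth muscle myosin, with 8 (0.35). The pericyte genes Pdgfrb (0.34) and Cspg4 (0.32) were positively called with 6 and 5, and Pdgfrb negatively with 1. The genes called with none were Kcnj8 (0.03) and Notch3 (-0.0022), of pericytes, and the contractile genes Acta2 (0.04), Cnn1 (0.06) and Mylk (0.09). Of 5 lymphatic genes, Lyve1 was called with 9 (median r = 0.60), the only 1 called with at least 5, beside 9.21% of all genes. Prox1 (0.07), Pdpn (0.20), Flt4 (0.08) and Reln (0.14) were called with 1 each. Lyve1 is also made by some macrophages. The level of the pericyte and smooth muscle list was called with 8 of the 10 genes, beside 11.1% of all genes, and that of the lymphatic list with 9, beside 13.7%.

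Hypoxia genes, which cells switch on when oxygen is short, ran against the endothelial genes in part. Of 9 on MOE430A, 3 were negatively called with at least 5 genes, Egln3 and Car9 with 8 each and Pgk1 with 5, and 6.96% of all genes passed the same correlation with as many. Egln3, an oxygen-sensing hydroxylase, had its strongest correlation with Tek (r = -0.78, rho = -0.80, adjusted permutation p = 7.09e-05, r = -0.78 without the 2 farthest tumours), and Car9, a carbonic anhydrase, likewise (r = -0.64, rho = -0.70, adjusted permutation p = 7.09e-05). Ldha (median r = 0.24), Ndrg1 (0.04) and Pdk1 (-0.02) were negatively called with 0 genes, and Ldha and Ndrg1 were positively called with 1 gene each. The mean of the list was negatively called with 6 of the 10 genes, beside 7.7% of all genes. Within sublines it was negatively called with 8, for which no share of all genes was computed.

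**Figure D4:**
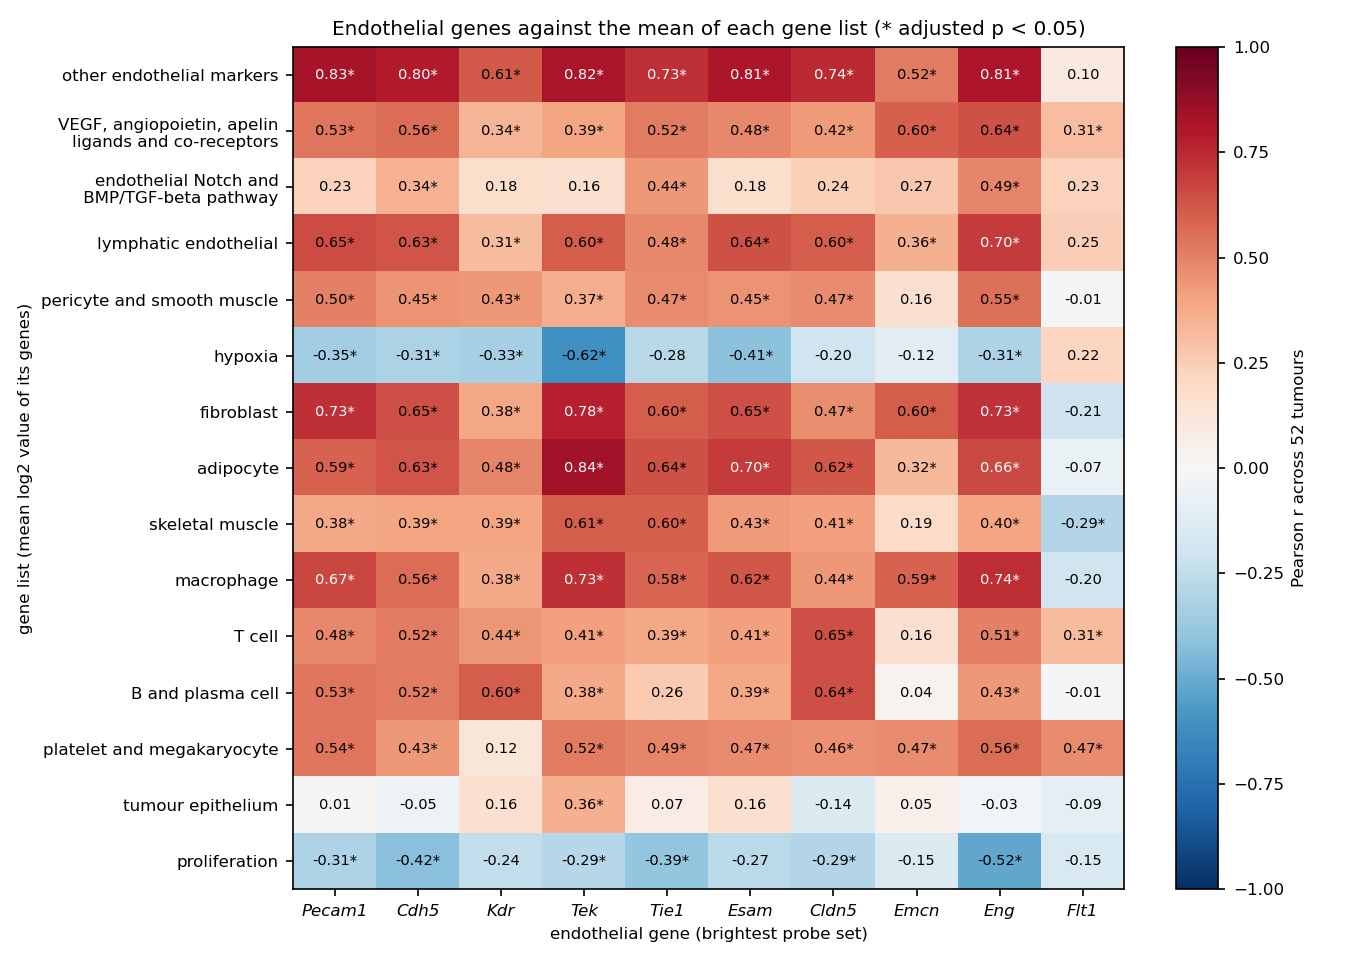
Pearson r across the 52 kept tumours between each endothelial gene (columns, brightest MOE430A probe set) and the mean log2 level of each gene list (rows), with colour from blue (-1) to red (1) and an asterisk where the permutation p adjusted over the 150 correlations is under 0.05. The column of Flt1 1451756_at is paler than the others, Tek has the strongest values for adipocyte (0.84) and hypoxia (-0.62) lists, and the tumour epithelium row runs from -0.14 (Cldn5) to 0.36 (Tek), with Tek the 1 gene called.

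Markers of other cells of the tissue moved with the endothelial genes as well. The mean of 8 adipocyte genes was positively called with 9 of the 10 genes by permutation adjusted over 150 correlations (median r = 0.62), beside 13.2% of all genes. The mean of 10 fibroblast genes was called with 9 (median r = 0.62, beside 10.4%), and that of 10 macrophage genes with 9 (median r = 0.59, beside 11.5%). The mean of 8 T cell genes was called with 9 (median r = 0.43, beside 28.4%), that of 10 skeletal muscle genes with 8 (median r = 0.39, beside 10.1%) and that of 6 B and plasma cell genes with 7 (median r = 0.41, beside 8.18%). The mean of 7 platelet genes was called with 9 (median r = 0.47, beside 30.9%). For comparison, the mean of the 26 other endothelial markers was called with 9 (median r = 0.77, beside 13.5%). The exception among the 10 genes was Flt1 1451756_at for the endothelial, adipocyte, fibroblast and macrophage lists, and it was negatively called with skeletal muscle (r = -0.29, rho = -0.29, adjusted permutation p = 0.0494, and 0.0533 for rho), beside 8.04% of all genes. Emcn was the exception for T cell genes and Kdr for platelet genes. The part of these cell types in the correlations among the endothelial genes was not tested.

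These lists spanned wide ranges. As the mean deviation from each gene's average in log2 units, the adipocyte level ran from -1.03 to 1.33, the fibroblast level from -1.61 to 0.79, the macrophage level from -0.85 to 0.66, the skeletal muscle level from -2.61 to 2.61 and the B and plasma cell level from -0.46 to 1.47, against -0.24 to 0.32 for the other endothelial markers. The tumours at the ends of the endothelial genes were at the ends of some of these lists and not of others. The adipocyte level was 1.23 in tumour 3 of subline 22, 1.33 in tumour 2 of subline 10, 1.06 in tumour 3 of subline 18 and -0.83 in tumour 2 of subline 28. In the same order, the skeletal muscle level was 2.61, 2.13, 0.52 and -0.18, the fibroblast level was 0.41, 0.54, 0.39 and -1.61, and the macrophage level was 0.41, 0.42, 0.28 and -0.85. The B and plasma cell level was 1.12, 0.73, 0.55 and -0.01, so tumour 2 of subline 28 was lowest of all for fibroblast and macrophage genes and in mid-range for skeletal muscle and B and plasma cell genes. Adipoq, a hormone that fat cells make, ran from 5.34 to 11.40 across the kept tumours.

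With the adipocyte, skeletal muscle, T cell and B and plasma cell levels removed from each gene, 29 of the 45 pairs were called (median r = 0.37). With the fibroblast and macrophage levels removed too, 17 were called (median r = 0.26). Both fits were added after seeing the data. The removed levels were themselves correlated with the endothelial genes, so the counts do not measure the part of other cell types. The shares of all pairs of genes given earlier are for values before any removal and do not gauge these counts.

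Single genes leaned toward different lists. Tek was the member closest to adipocyte genes (r = 0.84, rho = 0.84, adjusted permutation p = 3.95e-05, r = 0.82 without the 2 farthest tumours, 0.80 within sublines), and also to fibroblast genes (r = 0.78, rho = 0.79, adjusted permutation p = 3.95e-05). Cldn5 was closest to T cell genes (r = 0.65, rho = 0.55, adjusted permutation p = 3.95e-05) and to B and plasma cell genes (r = 0.64, rho = 0.41, adjusted permutation p = 3.95e-05, r = 0.56 without the 2 farthest tumours). Emcn was not called with either lymphocyte list (r = 0.16 and 0.04) but was called with macrophage genes (r = 0.59, rho = 0.57, adjusted permutation p = 6.52e-05). Differences between these correlations were not tested.

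The lists of tumour cell genes gave other values. The mean of 10 tumour epithelium genes was called with 1 of the 10 genes, Tek (r = 0.36, rho = 0.28, adjusted permutation p = 0.0107, and 0.067 for rho, r = 0.17 without the 2 farthest tumours, adjusted permutation p = 0.0917 within sublines), beside 12.1% of all genes. The mean of 9 proliferation genes was negatively called with 6, beside 15.3% of all genes (median r = -0.29). Eng was strongest there (r = -0.52, rho = -0.52, adjusted permutation p = 0.00021, r = -0.58 within sublines).

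**Figure D5:**
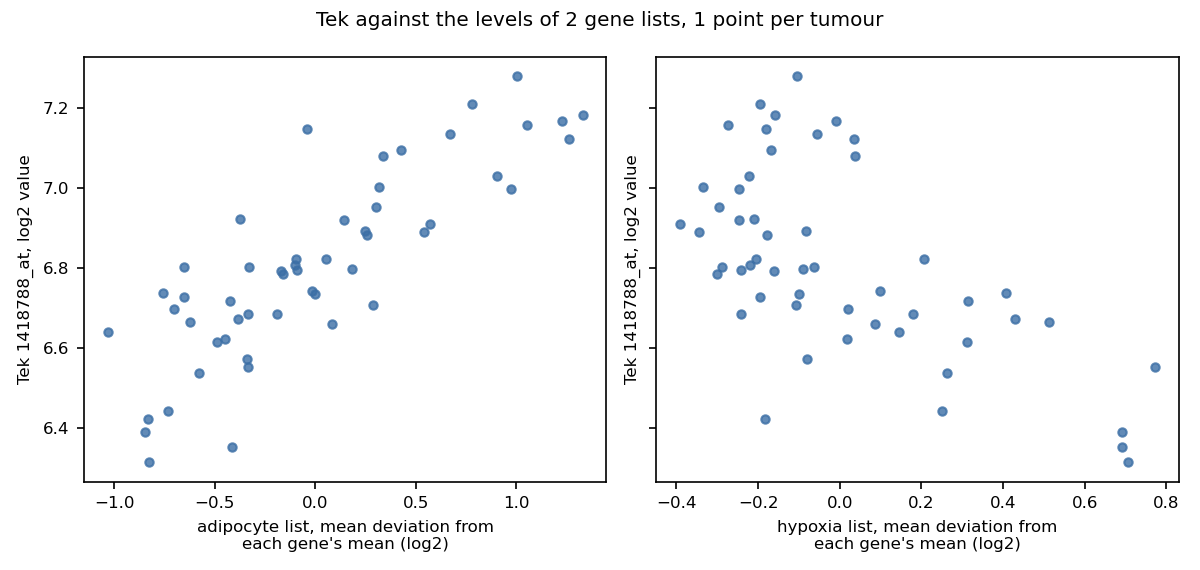
Log2 value of Tek (vertical axis) against the mean deviation of the adipocyte list (left) and the hypoxia list (right), in log2 units, 1 point for each of the 52 kept tumours. Tek rises with the adipocyte level (r = 0.84) and falls with the hypoxia level (r = -0.62), with no subline marked.

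The vascular lists were compared among sublines in the same way. Of 106 probe sets of 69 genes in the 5 vascular lists on MOE430A, 0 were called by limma's F test, beside 1.74% of all probe sets, and 9 had an unadjusted p under 0.05, beside 15.2%, the smallest belonging to Notch1 (limma adjusted p = 0.158). On MOE430B, 0 of 41 probe sets of these lists were called, beside 0.671%, and 2 had an unadjusted p under 0.05, beside 11%. Among the hypoxia and tumour epithelium lists, 1 probe set each of Pdk1 (limma adjusted p = 0.00578) and Muc1 (limma adjusted p = 0.00315) were called.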

How the data were processed

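The authors deposited log2 expression values made by RMA, per the submitters' processing notes; the version was not given in the sources used here. RMA corrects background, makes the arrays' distributions alike and summarises a probe set, which compresses low values. RNA was total RNA of whole tumours, per the labels' protocols. No further normalization, pseudocount or low-value filter was applied; control probe sets were left out. Probe sets were named from the platform annotation, with 20380 of 22626 probe sets on MOE430A and 14661 of 22511 on MOE430B having 1 symbol.

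Sublines were compared with limma 3.58.1 in R 4.3.3 (moderated F test, then each subline minus the unweighted mean of the others), with Benjamini-Hochberg adjustment over all probe sets. Called means an adjusted p under 0.05. Correlations across tumours used the brightest MOE430A probe set of each gene and two-sided permutation tests with 100000 resamples in Python 3.11.15 with numpy 2.4.6, adjusted over each family, and were repeated on deviations from subline means. Scripts were tested on simulated data. A list's level is the mean deviation of its genes.

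The genes named beside the members were each list's genes, with those singled out chosen after their values were seen, and the 10 and 5 genes with the highest and lowest median correlation with the members. The members and lists were chosen with earlier results of these data known. Replicate numbers were not used to pair tumours in the main fits. Deviations of same-numbered MOE430A tumours from their subline means had a median correlation of 0.00067 (-0.59 to 0.48), beside -0.0030 for other numbers. On MOE430B the medians were 0.016 and -0.013. Such medians cannot exclude a batch shared by some tumours of a number.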

Additional observations from a re-analysis of the deposited data

How the results depend on the processing

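No endothelial probe set differed among sublines under any alternative except array weights, which called 3 (Tie1, Eng and Emcn) of 14, beside 40.8% of all MOE430A probe sets; the same setting called 8 of 238 differences of a subline from the others, beside 4.08% of all. Such differences on MOE430A numbered 5 with all arrays, beside 3.86% of all. They numbered 2 without sublines 2, 20, 24 and 27, beside 1998 over 22626 probe sets and 13 sublines. Leaving out the dimmer probe sets gave 1 (Eng in subline 22), beside 1567 over 11313 probe sets and 17 sublines. Over 22626 probe sets and 17 sublines, median centring gave 1 (Eng in subline 22), beside 1813. Composition scores as covariates gave 1 (Tie1 in subline 28), beside 1482. Leaving out a replicate number gave 0 to 1, the 1 being Eng in subline 22 without replicate 1, beside 525 over 22626 probe sets and 17 sublines. On MOE430B, all arrays gave 1 (Flt1 in subline 11), beside 0.737% of all. The cause of these changes was not tested. Pairs called fell to 17 with 6 composition scores removed; the other settings gave 27 to 43. With all arrays 27 were positive and 1 negative. With the replicate number as a block, 0 probe sets were called and 35 pairs. The number of arrays limits the precision, and with 3 tumours in most sublines small differences between sublines were not detectable.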

Other observations

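The genes most like the endothelial genes were not all endothelial. By the median Pearson r with the 10 genes over 52 tumours, a description with no test, Ramp2 (0.74) and Cd34 (0.73) led, followed by Tnxb (0.70), a matrix protein, Gstm2 (0.69), a glutathione transferase, and Pf4 (0.69), a platelet chemokine. Cavin1 (0.68), a protein of caveolae, Klf2 (0.68), a transcription factor that responds to blood flow, Igfbp6 (0.67), Srpx (0.67) and Rgs5 (0.67) completed the first 10. Over all genes of MOE430A, 2.73% had a median r above 0.5. The lowest were Lrrc40 (-0.58), Nudcd2 (-0.58), Mtbp (-0.57), Slc30a7 (-0.55) and Appbp2 (-0.54), and 0.145% of all genes had a median r below -0.5.

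Genes of the platelet list had unlike correlations with the endothelial genes, a difference that was not tested. Pf4 had a median r of 0.69, while Itga2b, the integrin that defines platelets and megakaryocytes, was at -0.0050. Among single genes of other lists, chosen after their values were seen, Adipoq had a median r of 0.55, the fibroblast collagen Col3a1 0.60, the macrophage receptor Csf1r 0.56, the proliferation marker Mki67 -0.22 and the epithelial keratin Krt18 0.01.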
